A study of Mus musculus with 30 samples.

Results

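Wild-type dendritic cells that had been given apoptotic Jurkat cells for 4 h were compared with untreated wild-type dendritic cells, across the whole table of counts per gene. The comparison rests on 6 of the 30 libraries of the series, 3 per group, chosen by their sample titles, and 14808 of the 25611 gene rows had enough counts to be tested. The cells were grown from the bone marrow of wild-type mice for 6 to 7 days in medium with FLT3L, the growth factor of dendritic cell precursors, at 200 ng/ml. Jurkat is a human T-cell leukaemia line. The labels call the added cells apoptotic and name neither the way death was induced nor the number added per dendritic cell. A further 2 wild-type groups of 3 libraries each were used for reference, cultures given ovalbumin (OVA, a soluble protein antigen) for 4 h and cultures given apoptotic Jurkat cells for 30 min. The same 4 h comparison was also made in cultures from mice that lack Rubcn (KO), with 3 treated and 3 untreated libraries. Rubcn encodes Rubicon, a protein of LC3-associated phagocytosis. The titles do not say whether libraries of a group came from separate mice or cultures, so p-values measure only the spread between these libraries.

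Dendritic cells take up dying cells, degrade them in phagosomes and present peptides from them to T cells. Uptake runs through receptors for phosphatidylserine and other surface signals of dying cells. It can stay immunologically quiet, or it can come with maturation when nucleic acids or other danger signals reach pattern recognition receptors. Such receptors act through NF-kB, which drives inflammatory cytokine genes, and through IRF factors, which drive interferon-beta. Secreted interferon then acts on the same and on neighbouring cells and switches on the interferon-stimulated genes. Cultures grown in FLT3L hold plasmacytoid dendritic cells and both types of conventional dendritic cell. In such bulk samples fewer cells of a type and less RNA per cell cannot be told apart.

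The response at 4 h was broad. Of the 14808 genes tested, 11778 (79.5%) differed between the groups at an adjusted p (FDR) under 0.05 in edgeR's quasi-likelihood test, with 5761 higher (38.9%) and 6017 lower (40.6%). Since a call of this kind was the usual state of a gene, counts below are of genes that were called and also changed at least 2-fold. Such genes numbered 4406 (29.8%), of which 2551 were higher (17.2%) and 1855 lower (12.5%). The rises reached further than the falls. At least 32-fold higher were 318 genes (2.15%), against 11 genes (0.0743%) at least 32-fold lower. The genes that were at least 2-fold higher together held 10.6% of the scaled counts of untreated cells and 32.4% of those at 4 h. The genes at least 2-fold lower went from 9.28% to 2.46%. Levels are CPM, counts per 1000000 counts of the library, on library sizes scaled with TMM factors, which assume that most genes keep their level. These factors were 1.05 in the untreated libraries and 0.765 to 0.813 at 4 h. With scaling to total counts instead, the median log2 fold change of all genes moved from -0.02 to -0.42, and 29.0% of the called genes were higher in place of 48.9%. All directions below are relative to the TMM scale.

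**Figure D1:**
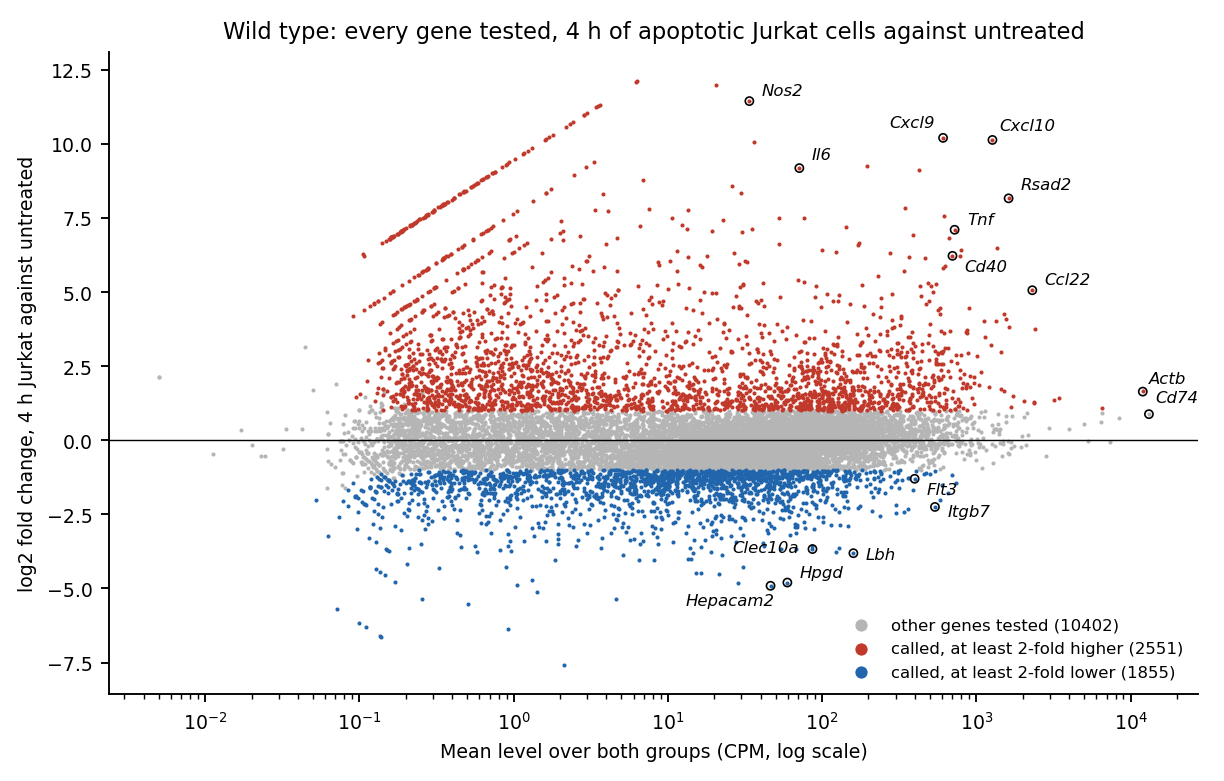
Each point is 1 of the 14808 genes tested, with its mean level over both groups in CPM on a log scale on the x axis and its log2 fold change, 4 h of apoptotic Jurkat cells against untreated, on the y axis. Red points (2551) were called at least 2-fold higher and blue points (1855) at least 2-fold lower; the straight streaks at the upper left are genes with no or very few counts in untreated cells, whose fitted fold changes depend on the prior count.

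Libraries of the 2 groups were of similar depth, at 41448924 to 46913990 counts. Genes whose 3 libraries at 4 h lay wholly above or below the 3 untreated libraries numbered 11757 (79.4%). Among genes given with their levels, the libraries of the 2 groups overlapped in Ciita, Egr1, Ldha, Mcpt8, Siglech and Tgfb1 and did not overlap in the others. Defining genes of the cultured cells were present in untreated libraries. Flt3, the FLT3L receptor, stood at 567 CPM, Itgax (CD11c) at 486 CPM, Siglech of plasmacytoid cells at 800.1 CPM, and Xcr1 and Sirpa, which mark types 1 and 2 of conventional dendritic cells, at 89.9 and 587 CPM. Rubcn (Entrez 100502698, mm10 chromosome 16, 32821702 to 32868366) ran from 95.6 to 105 CPM in untreated wild-type libraries and from 70.4 to 75.8 CPM in untreated KO libraries, so that reads of the gene remained in KO. The labels do not say which part of the gene was deleted, so this level does not check the genotype.

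Added Jurkat cells bring human RNA, and human reads can align to mouse genes. How the counting treated them is not given in the sources used here. A list of 30 T-lineage genes was therefore followed. Of 27 members in the table, 25 were tested, and 17 of them were at least 2-fold higher at 4 h and 1 at least 2-fold lower. These shares were 68.0% and 4.0%, against 17.2% and 12.5% of all genes tested. Their summed level was 96.8 to 102 CPM in untreated libraries, 90.8 to 96.8 CPM after 4 h of OVA, 160.4 to 168 CPM after 30 min of Jurkat cells and 232 to 283 CPM after 4 h of Jurkat cells. The 14 members under 1 CPM in untreated cells summed to 4.05 to 4.53 CPM there, to 42.1 to 44.4 CPM at 30 min and to 91.1 to 121 CPM at 4 h. These 14 had little room to fall and can pass the filter through the groups where they are high. With a stricter filter of 5 CPM in 3 libraries, 6 members of the list were at least 2-fold higher. Lef1, a T-lineage transcription factor, stood at 0.245, 0.323 and 0.286 CPM in the untreated libraries and at 41.4, 33.5 and 40.3 CPM at 4 h. It had already reached 17.2 CPM at 30 min. Zap70 and Cd3e, which encode parts of T-cell receptor signalling, rose from 0.471 ± 0.0843 to 35.2 ± 7.29 CPM and from 0.0778 ± 0.021 to 6.09 ± 0.573 CPM (mean ± SD over 3 libraries, as in all such values; log2 6.22 and 6.23). Lck and Gata3 rose as well, by log2 3.93 and 4.31. Bcl11b, a factor of T-cell commitment, held 3 counts over the untreated libraries and reached 7.62 CPM, a ratio of counts of 358 with a 95% counting interval of 122 to 1740. Cd28, which is not limited to T cells, fell (log2 -1.2, SE 0.084). Each tested member had a count in the untreated libraries, while Cd3d and Txk were too low to be tested. The rise moved with the added Jurkat cells, and its part in the results below was not tested. Genes already called higher at 30 min of Jurkat cells numbered 2097 (14.2%). With these left out before scaling, 1 T-lineage member was at least 2-fold higher. By the same omission the lists described below also lost early members. Still at least 2-fold higher were then 11 NF-kB genes (19 before), 17 cytokines (28) and 11 chemokines (18). The same held for 5 NRF2 targets (14 before), 3 immediate early factors (11) and 4 SOCS and DUSP genes (12). The omission takes out every gene that rose early, by construction, so these counts cannot separate Jurkat RNA from early responses of the dendritic cells.

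**Figure D2:**
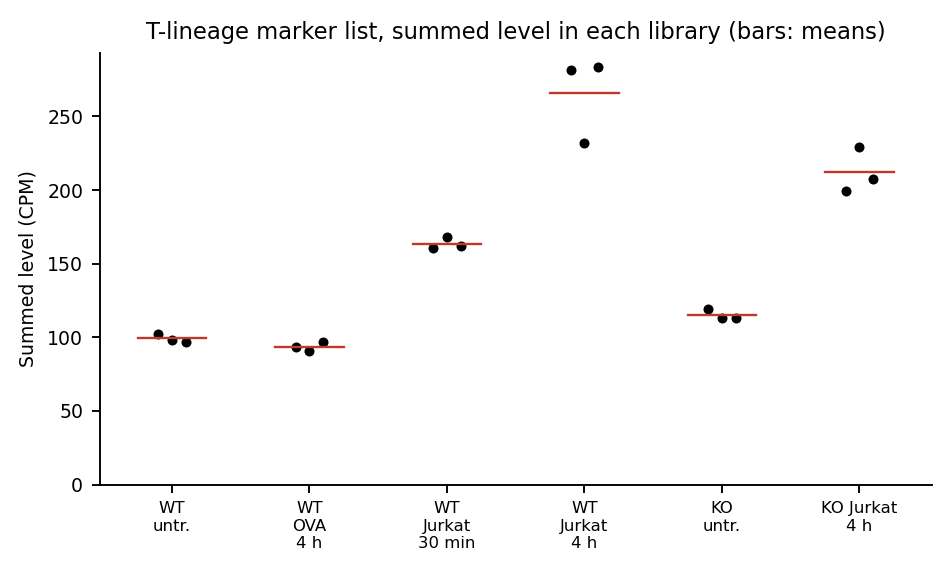
Summed level of the 25 tested T-lineage genes in CPM (y axis, from 0) in each of 3 libraries (points) of 6 groups (x axis), with red bars at the group means; untr. stands for untreated. The wild-type libraries at 4 h of Jurkat cells lie at 232 to 283 CPM, above those at 30 min (160.4 to 168 CPM) and above the untreated and OVA libraries.

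Promoters of 5 genes of the interferon and NF-kB arms, which the results turn on, are shown here before the values. They are the 250 bases before the start of the gene in RefSeq on the build GRCm38.p6, the assembly that mm10 names, 5′ to 3′ on the strand of the gene. Ifnb1 (chr4:88522795-88523044, minus strand) encodes interferon-beta, Isg15 (chr4:156200819-156201068, minus strand) a ubiquitin-like antiviral protein, Cxcl10 (chr5:92348890-92349139, minus strand) a chemokine for activated T cells, Il6 (chr5:30012864-30013113, plus strand) interleukin 6 and Cxcl2 (chr5:90903649-90903898, plus strand) a chemokine for neutrophils. Capitals mark matches, on either strand, to a kB motif (GGGANNTTC or GGGGNTTTC), to the core of the interferon-stimulated response element (ISRE, GAAANNGAA), to AP-1 (TGANTCA) or to a TATA box (TATAAA).
Ifnb1: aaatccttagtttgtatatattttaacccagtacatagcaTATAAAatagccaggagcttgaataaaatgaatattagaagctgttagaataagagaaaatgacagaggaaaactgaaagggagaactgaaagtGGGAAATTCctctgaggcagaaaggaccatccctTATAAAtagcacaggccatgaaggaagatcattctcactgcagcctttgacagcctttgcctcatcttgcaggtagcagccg
Isg15: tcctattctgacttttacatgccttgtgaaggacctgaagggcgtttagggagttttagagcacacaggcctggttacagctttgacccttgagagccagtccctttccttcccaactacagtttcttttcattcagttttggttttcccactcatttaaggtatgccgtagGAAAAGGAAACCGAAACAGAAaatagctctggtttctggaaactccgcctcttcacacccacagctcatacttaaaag
Cxcl10: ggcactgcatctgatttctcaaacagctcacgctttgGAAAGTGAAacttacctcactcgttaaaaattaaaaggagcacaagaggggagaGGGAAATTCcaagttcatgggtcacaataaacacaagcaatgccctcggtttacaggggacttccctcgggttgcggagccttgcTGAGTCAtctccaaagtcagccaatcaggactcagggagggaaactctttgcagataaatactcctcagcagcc
Il6: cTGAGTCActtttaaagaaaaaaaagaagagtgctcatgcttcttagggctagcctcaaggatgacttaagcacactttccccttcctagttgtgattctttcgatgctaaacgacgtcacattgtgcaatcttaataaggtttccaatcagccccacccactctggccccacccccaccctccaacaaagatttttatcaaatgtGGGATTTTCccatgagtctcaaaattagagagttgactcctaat
Cxcl2: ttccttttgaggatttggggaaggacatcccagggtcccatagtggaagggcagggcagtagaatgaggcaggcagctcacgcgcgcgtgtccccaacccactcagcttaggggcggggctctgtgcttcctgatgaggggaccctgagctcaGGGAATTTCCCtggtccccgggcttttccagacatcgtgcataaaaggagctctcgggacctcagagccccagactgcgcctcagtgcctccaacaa
The kB match of Ifnb1 lies 116 to 108 bases before the start and that of Il6 44 to 36 bases before it. Isg15 holds 3 ISRE core matches that overlap each other, between 78 and 58 bases before the start. Cxcl10 holds a kB match, an ISRE core match and an AP-1 match, and Cxcl2 holds 2 kB matches that overlap on opposite ends of 1 stretch. Each match is a run of letters and not a measured binding site. Promoters were found for 11584 of the tested genes, which is 78.2% and under 80%, so no shares are given for all genes that rose or fell. Among the 11584 promoters, 4.2% held a kB match, 6.63% an ISRE core match, 4.51% an AP-1 match and 6.94% a TATA box match. The promoters of Tnfsf15, Hpgd, Rsad2, Hepacam2 and Lbh, genes described below, were also scanned and are not printed. Those of Tnfsf15 and Hpgd held no match to these motifs. Rsad2 held an ISRE core, an AP-1 and a TATA box match, and Hepacam2 and Lbh, which fell, held TATA box matches only. Of 20 tested NF-kB subunits and inhibitors 17 had a promoter, and 35.3% of those held a kB match. Promoters were found for 13 of 21 tested chemokines, 23 of 33 cytokines and 35 of 46 interferon-stimulated genes. Each is under 80%, so no shares are given for these lists. All 13 interferon genes tested had a promoter, and 84.6% of those held an ISRE core match, with the promoters of the Ifna genes close copies of each other. Of the 13, 7.69% held a kB match. The Ifnb1 promoter held no ISRE core match.

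Interferon genes went from almost no counts to several CPM. For Ifnb1 (Entrez 15977, mm10 chromosome 4, 88522025 to 88522794) the 3 untreated libraries held no count, and the levels at 4 h were 9.68, 15.8 and 12.1 CPM. It was thus at least 586-fold higher, against a floor of 3 counts over the untreated group (edgeR FDR 4.9e-16). OVA gave 0.137, 0.237 and 0.0741 CPM at 4 h, and 30 min of Jurkat cells a mean of 0.0219 CPM, so no library of either group came near the levels at 4 h of Jurkat cells. Ifna4 and Ifna5, also without a count in untreated cells, reached 4.35 ± 1.53 and 7.04 ± 2.36 CPM (SD, n = 3), at least 203-fold and 329-fold higher. Of 19 genes of types I and III in the list, 13 had enough counts to be tested. Of these, 12 had no untreated count and so could only be higher, and no count of calls or median is given for the list. Summed over the 13 tested genes, untreated libraries held 0 to 0.0204 CPM and libraries at 4 h 35.4 to 62.04 CPM. A stricter filter of 5 CPM in 3 libraries left 1 of these genes. Copies of Ifna are nearly identical, so counts of single copies are uncertain. Under DESeq2, Ifna5 was not called (adjusted p 0.112).

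Interferon-stimulated genes rose almost as a block. All 46 members of the list were called higher and 45 were at least 2-fold higher, with a median log2 fold change of 3.8 against -0.02 over all genes tested. Summed, they went from 4638 to 4886 CPM in untreated libraries to 44686 to 54250.3 CPM. Rsad2, an antiviral enzyme of nucleotide metabolism, stood at 12.2, 9.75 and 11.96 CPM in untreated libraries and at 2783, 3789 and 3113 CPM at 4 h (log2 8.16, SE 0.515, edgeR FDR 9.07e-15). Oasl1, of the oligoadenylate synthetase family, rose from 6.45 ± 0.436 to 1230.2 ± 82.9 CPM (log2 7.57, SE 0.409). In both, the lowest library at 4 h was far above the highest untreated one. Isg15 rose from 20.96 ± 1.26 to 1227 ± 135 CPM (log2 5.87, SE 0.332), Ifit1, which binds foreign RNA ends, from 11.7 ± 0.695 to 1322 ± 166 CPM (log2 6.82, SE 0.419), and Mx1, a GTPase against influenza viruses, from 149 ± 3.53 to 2862 ± 208 CPM (log2 4.26, SE 0.173). Ifit2, of the same family as Ifit1, rose by a log2 of 6.47. Among factors of the pathway, Irf7, which drives the Ifna genes, rose from 157 ± 9.36 to 2533 ± 270.2 CPM (log2 4.01, SE 0.165). Within the list the smallest change was in Irf9 (log2 0.79), a DNA-binding factor of the interferon response. Irf1 rose from 191 ± 4.73 to 838 ± 46.8 CPM (log2 2.14, SE 0.0489).

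The chemokines that bind CXCR3 on activated T cells, all known interferon targets, showed some of the steepest rises. Cxcl10 (Entrez 15945, mm10 chromosome 5, 92346639 to 92348889) held 2.32, 2.16 and 2.33 CPM in untreated libraries and 2271, 2802 and 2556 CPM at 4 h (log2 10.13, SE 0.588, edgeR FDR 1.29e-15). OVA for 4 h gave 74.2 CPM, so the level with Jurkat cells was higher by a log2 of 5.1 (edgeR FDR 1.31e-11). Cxcl9 rose from 1.03 ± 0.115 to 1217 ± 102 CPM (log2 10.2, SE 0.651) and Cxcl11 from 0.0638 ± 0.0428 to 72.2 ± 9.71 CPM (log2 10.07, SE 0.42). At 30 min they were at 1.16 and 0.058 CPM, close to the untreated levels. Among chemokines for neutrophils, Cxcl2 stood at 0.957, 0.367 and 0.612 CPM in untreated libraries, at 35.5 CPM after 30 min and at 400.5, 375 and 397 CPM after 4 h (log2 9.24, SE 0.178, edgeR FDR 7.18e-27). Cxcl1 rose from 0.463 ± 0.106 to 59.97 ± 4.45 CPM (log2 7.01, SE 0.17) and Cxcl3 from 0.134 ± 0.0907 to 52.1 ± 3.99 CPM (log2 8.56, SE 0.487). Ccl3 and Ccl4, which attract T cells and monocytes, rose from 6.35 ± 0.639 to 766 ± 73.1 CPM and from 3.03 ± 0.238 to 689.7 ± 67.8 CPM (log2 6.92 and 7.83). Ccl5, another chemokine that attracts T cells, rose from 115 ± 5.58 to 713 ± 54.7 CPM (log2 2.63, SE 0.0692). Ccl22, made by mature dendritic cells to attract cells with CCR4, was among the 5 genes that gained most CPM and went from 134 ± 8.32 to 4481 ± 124 CPM (log2 5.06, SE 0.252). Of 21 chemokines tested 21 were called higher and 18 at least 2-fold higher, with a median log2 fold change of 5.06. Of these, 8 were under 1 CPM in untreated cells and had little room to fall. Such genes can pass the filter through the groups where they are high, which favours rises in the count and the median.

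Most inflammatory cytokines rose as well. Il6 (Entrez 16193, mm10 chromosome 5, 30013114 to 30019975) held 0.267, 0.28 and 0.184 CPM in untreated libraries and 126, 162 and 139 CPM at 4 h (log2 9.18, SE 0.38, edgeR FDR 3.54e-19), while OVA left it at 1.15 CPM. Tnf stood at 9.73, 11.5 and 10.2 CPM and then at 1398, 1484 and 1427 CPM (log2 7.1, SE 0.114, edgeR FDR 2.13e-28). Tnf had reached 95.6 CPM by 30 min and Il6 only 0.47 CPM. Il12b, the shared subunit of interleukins 12 and 23, rose from 18.5 ± 1.05 to 1568 ± 101 CPM (log2 6.4, SE 0.323) and was at 21.8 CPM after OVA. Il1a and Il1b rose from 0.505 ± 0.221 to 69.4 ± 3.17 CPM and from 23.98 ± 1.44 to 953 ± 39.2 CPM (log2 7.11 and 5.31). Tnfsf15 (TL1A) rose from 0.843 ± 0.086 to 152 ± 20.6 CPM (log2 7.49, SE 0.291) and Lta (lymphotoxin-alpha) from 0.156 ± 0.0254 to 24.7 ± 2.02 CPM (log2 7.27, SE 0.239). Anti-inflammatory cytokines were mixed. Il10 rose from 0.268 ± 0.117 to 9.25 ± 1.12 CPM (log2 5.08, SE 0.251), but Tgfb1, which macrophages are known to release after uptake of dying cells, was at 229, 224 and 239 CPM before and 230.0, 220.0 and 227 CPM after, within the spread of the libraries (log2 -0.03, edgeR FDR 0.534). With total counts Tgfb1 was lower (log2 -0.43). Of 33 cytokines tested 28 were at least 2-fold higher and 1, Tnfsf13b (the B-cell survival factor BAFF), at least 2-fold lower (log2 -1.78). The median was 3.68. Of the 33, 12 were under 1 CPM in untreated cells and had little room to fall. Il12a, the other subunit of interleukin 12, was slightly lower (log2 -0.23).

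**Figure D3:**
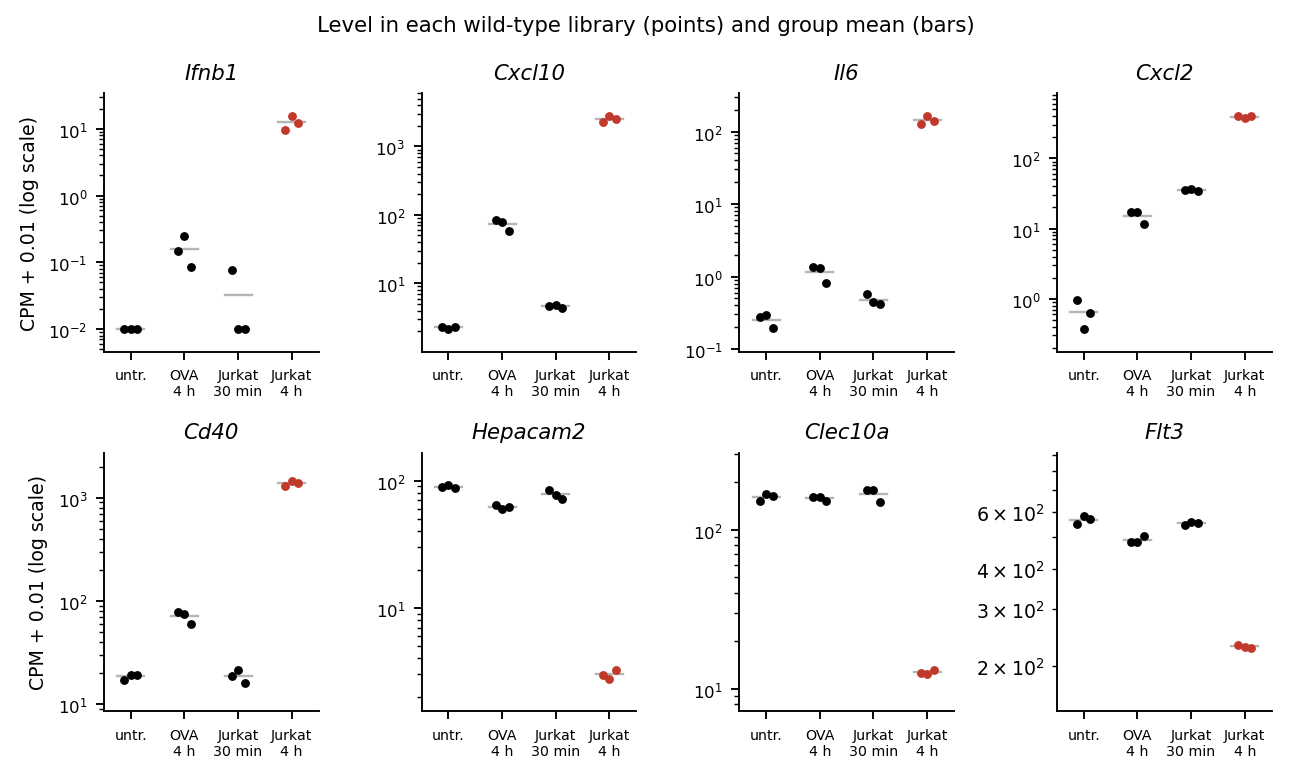
Level of 8 genes in each of 3 wild-type libraries (points) of 4 groups (x axis; untr. is untreated), as CPM plus 0.01 on log scales (y axes), with bars at the group means and the libraries at 4 h of Jurkat cells in red. Ifnb1, Cxcl10, Il6, Cxcl2 and Cd40 are highest in those 3 libraries, and Hepacam2, Clec10a and Flt3 are lowest there.

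NF-kB is held in the cytoplasm by IkB proteins, and its target genes include its own inhibitors. Of 20 subunits and feedback inhibitors tested, 19 were at least 2-fold higher (median log2 2.61), and Cyld, a deubiquitinase that limits the pathway, was lower (log2 -0.35). Nfkbia, which encodes the IkB-alpha inhibitor, held 88.8, 96.01 and 92.8 CPM and then 1117, 1170.0 and 1136 CPM (log2 3.62, SE 0.0565, edgeR FDR 1.05e-28), and had reached 169 CPM at 30 min. Tnfaip3 (A20) rose from 58.1 ± 0.621 to 1107 ± 67.8 CPM (log2 4.25, SE 0.072). Nfkbiz, an IkB that helps to switch on Il6, rose from 36.8 ± 1.78 to 946 ± 74.3 CPM (log2 4.68, SE 0.1), and the subunits Rel and Relb rose by a log2 of 2.33 and 2.8. Traf1, a signalling adaptor, rose from 51.6 ± 1.96 to 1081 ± 56.7 CPM (log2 4.39, SE 0.146) and Tnip3, a binding partner of A20, from 38.2 ± 1.44 to 490.2 ± 52.5 CPM (log2 3.68, SE 0.0995). Among feedback genes of other pathways, the cytokine signal inhibitors Socs1 and Socs3 rose from 2.96 ± 0.199 to 77.9 ± 4.303 CPM and from 15.4 ± 1.21 to 359.8 ± 8.95 CPM (log2 4.72 and 4.54). Dusp2, a phosphatase of MAP kinases, rose from 20.6 ± 1.39 to 460.3 ± 11.2 CPM (log2 4.48, SE 0.0887), while Dusp6, which acts on ERK, fell from 80.9 ± 4.68 to 26.2 ± 0.841 CPM (log2 -1.63, SE 0.0542). Cish, another inhibitor of the SOCS family, rose from 0.574 ± 0.15 to 22.6 ± 1.35 CPM (log2 5.29, SE 0.193), and the phosphatases Dusp1 and Dusp4 by log2 2.62 and 2.87. Together 12 of 23 SOCS and DUSP genes were at least 2-fold higher and 1 at least 2-fold lower (52.2% and 4.35%, against 17.2% and 12.5% of all genes tested). With total counts 4 were lower.

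Immediate early genes stood at differing levels by 4 h. Nr4a3, an orphan nuclear receptor, rose from 20.7 ± 0.264 to 1550.4 ± 168 CPM (log2 6.23, SE 0.287) and stood at 23.8 CPM at 30 min. Atf3, a stress factor, rose from 50.7 ± 2.805 to 418 ± 19.9 CPM (log2 3.05, SE 0.0868), Maff from 7.98 ± 0.459 to 67.9 ± 2.32 CPM (log2 3.09, SE 0.0678) and Jun, a part of AP-1, from 62.6 ± 1.89 to 242 ± 19.8 CPM (log2 1.95, SE 0.0588). Fos, the partner of Jun, rose by 0.54 (SE 0.0811) and was not called with total counts. Egr1 had been at 82.4 CPM at 30 min, and at 4 h its libraries, at 51.2, 47.7 and 46.8 CPM, lay within the range of the untreated ones, at 44.2, 53.1 and 50.1 CPM (edgeR FDR 0.886). With total counts Egr1 was called lower (log2 -0.42). Klf4 and Klf2, zinc finger factors tied to quiescence, fell from 126 ± 2.64 to 9.83 ± 1.06 CPM and from 52.2 ± 3.29 to 6.697 ± 1.01 CPM (log2 -3.68 and -2.96). Of 25 members tested 11 were at least 2-fold higher and 2 at least 2-fold lower (44.0% and 8.0%, against 17.2% and 12.5% of all genes tested). The median log2 was 0.82.

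Maturation genes rose widely. Cd40, the receptor for T-cell help, held 17.1, 19.3 and 19.2 CPM in untreated libraries and 1303, 1455 and 1392 CPM at 4 h (log2 6.22, SE 0.296, edgeR FDR 9.93e-18). OVA gave 70.7 CPM and 30 min of Jurkat cells 18.6 CPM, so the 3 libraries at 4 h of Jurkat cells stood apart. The co-stimulatory ligands Cd80 and Cd86 rose from 10.2 ± 0.295 to 81.9 ± 6.27 CPM and from 72.9 ± 1.41 to 573 ± 46.3 CPM (log2 3.0 and 2.97). Cd274, which encodes the inhibitory ligand PD-L1, rose from 12.9 ± 0.999 to 667 ± 65.4 CPM (log2 5.7, SE 0.187), and Ccr7, the receptor that leads dendritic cells to lymph nodes, from 141 ± 3.98 to 954 ± 86.1 CPM (log2 2.75, SE 0.0889). Tnfsf4 (OX40 ligand) and Cd70, both ligands for T-cell survival, rose from 0.256 ± 0.0514 to 7.79 ± 0.98 CPM and from 0.0793 ± 0.0479 to 7.92 ± 1.12 CPM (log2 4.91 and 6.6). In all 22 of 26 maturation genes were at least 2-fold higher, 2 were not called and none fell (median log2 2.73). Of the 26, 4 were under 1 CPM in untreated cells and had little room to fall. Chemokine receptors and adhesion genes moved both ways. Itgb7, an integrin for gut homing, was among the 5 genes that lost most CPM, from 891 ± 54.9 to 188 ± 5.42 CPM (log2 -2.25, SE 0.0569). Ccr2, the receptor for entry into inflamed tissue, fell from 1077 ± 102 to 400.0 ± 22.4 CPM (log2 -1.43, SE 0.0744), and Cxcr3 from 51.9 ± 1.23 to 8.62 ± 1.02 CPM (log2 -2.59, SE 0.0812). Of 20 in the list 5 were at least 2-fold lower and 3 at least 2-fold higher. Without replicate 2 at 4 h, and with the stricter filter, 1 was at least 2-fold higher. Itga4, an integrin of homing, rose from 403 ± 45.9 to 836 ± 90.7 CPM (log2 1.05, SE 0.0791), and the receptors Cxcr4 and Ccr9 were lower by less than 2-fold (log2 -0.36 and -0.33).

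Summed levels of the lists for antigen presentation were higher at 4 h, going from 11236 to 11567 CPM to 23162 to 25138 CPM for MHC class I and from 26253 to 29333 CPM to 47749.5 to 50555 CPM for class II. For MHC class I, which presents to CD8 T cells and is under interferon control, 13 of 24 genes were at least 2-fold higher and none at least 2-fold lower (median log2 1.04). With total counts 7 were. Nlrc5, the activator of class I genes, rose from 138 ± 7.26 to 1182 ± 109 CPM (log2 3.09, SE 0.106), Tap1, a subunit of the peptide pump, from 389 ± 13.8 to 1315 ± 48.5 CPM (log2 1.76, SE 0.0464), and B2m, the light chain, from 1407 ± 62.9 to 3341 ± 306 CPM (log2 1.25, SE 0.0516). Tapbp, which loads peptides, and Psme2, a proteasome activator subunit, rose by log2 1.81 and 1.78. Class I heavy chains such as H2-K1 (log2 1.32) share sequence, so their single counts are uncertain. Wdfy4, needed for cross-presentation in type 1 cells, was lower, from 1737 ± 116 to 1191 ± 47.3 CPM (log2 -0.54, SE 0.0515). For class II, 8 members were called higher and 9 lower, 3 and 1 of them at least 2-fold (median log2 -0.09), and the share at least 2-fold higher, 17.6%, was near that of all genes tested (17.2%). Chains and chaperone rose, with Cd74 (invariant chain) going from 9258 ± 873 to 17067 ± 579.8 CPM (log2 0.88, SE 0.0527), H2-Aa from 6283 ± 277 to 10491 ± 279 CPM (log2 0.74, SE 0.0423) and H2-Eb1 from 4181 ± 237 to 8833 ± 335 CPM (log2 1.08, SE 0.0417). All 3 were among the 5 genes that gained most CPM. Ciita, the activator of the class, was at 615 and 578 CPM (log2 -0.09, SE 0.0419) and was not called under DESeq2. The loading factors H2-DMa and H2-Oa fell (log2 -0.83 and -0.48), and March1, the ligase that removes class II from the surface, fell from 163 ± 21.4 to 49.6 ± 2.91 CPM (log2 -1.72, SE 0.072). With total counts 0 class II genes were at least 2-fold higher and 5 at least 2-fold lower.

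Receptors for dying cells moved in both directions. Of 31 receptors and bridging molecules 8 were at least 2-fold higher and 5 at least 2-fold lower, or 25.8% and 16.1% against 17.2% and 12.5% of all genes tested. The median log2 fold change was 0.32, or -0.08 with total counts. Marco, a scavenger receptor, stood at 0.623, 0.776 and 0.592 CPM in untreated libraries and 55.6, 53.8 and 49.8 CPM at 4 h (log2 6.32, SE 0.238, edgeR FDR 3.68e-20). OVA gave 15.2 CPM, between the 2 groups. Timd4 (TIM-4), a phosphatidylserine receptor, rose from 1.18 ± 0.297 to 37.3 ± 1.35 CPM (log2 4.98, SE 0.219), and Axl, a kinase that binds phosphatidylserine through Gas6 and is a known interferon target, from 131 ± 4.33 to 1001 ± 97.03 CPM (log2 2.93, SE 0.0977). Mertk, of the same family, rose by 1.13 (SE 0.126), and the scavenger receptor Msr1 from 20.7 ± 4.41 to 79.2 ± 8.99 CPM (log2 1.94, SE 0.173). Cd36 was higher (log2 0.74, SE 0.197) and was not called with total counts. Those that fell included the lipoprotein receptor Scarb1, from 136 ± 7.21 to 42.5 ± 2.95 CPM (log2 -1.67, SE 0.054), Cd300lf, from 41.9 ± 0.3 to 18.6 ± 1.33 CPM (log2 -1.18, SE 0.0545), and Havcr2 (TIM-3), from 96.6 ± 3.32 to 43.5 ± 0.183 CPM (log2 -1.15, SE 0.0415). Dock1, which drives the cytoskeleton in engulfment, fell from 19.4 ± 0.561 to 9.09 ± 0.941 CPM (log2 -1.09, SE 0.0717). Clec9a, the type 1 cell receptor for actin of dead cells, rose slightly (log2 0.47, SE 0.0525) and, too, was not called with total counts.

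In LC3-associated phagocytosis, Rubicon, the NADPH oxidase and the lipid kinase complex around Vps34 precede LC3 conjugation at the phagosome. Rubcn itself fell in wild type, from 95.6 to 105 CPM in untreated libraries to 56.1 to 62.3 CPM at 4 h (log2 -0.75, SE 0.0484, edgeR FDR 1.58e-14). It was 79.5 to 82.7 CPM at 30 min. The oxidase subunits Cybb and Ncf1 rose from 732 ± 41.8 to 2314 ± 211 CPM and from 453 ± 8.14 to 1113 ± 98.8 CPM (log2 1.66 and 1.3). The Vps34 partner Uvrag fell by a log2 of 0.37, and Atg14 by 0.91. Becn1 was slightly higher (log2 0.41). Map1lc3b, which encodes an LC3, fell from 80.7 ± 2.38 to 59.9 ± 2.104 CPM (log2 -0.43, SE 0.0385), and the kinase Ulk2 from 72.4 ± 2.35 to 30.5 ± 1.61 CPM (log2 -1.25, SE 0.0441). Among cargo receptors Sqstm1 (p62) rose from 245 ± 2.04 to 2259 ± 14.01 CPM (log2 3.21, SE 0.0527) and Optn from 4.79 ± 0.274 to 73.4 ± 7.33 CPM (log2 3.94, SE 0.119). Of 33 list members 12 were called higher and 17 lower, 6 and 1 of them at least 2-fold (median log2 -0.18). The share at least 2-fold higher, 18.2%, was near the 17.2% of all genes. With total counts 3 were at least 2-fold higher and 10 lower. Among 33 lysosome genes 4 were at least 2-fold higher, among them Lamp2 (log2 1.12, SE 0.0912) and Ctsz (log2 1.14, SE 0.0357), and 1 was lower, Gusb (log2 -1.05, SE 0.0412), which fell short of 2-fold under DESeq2. Ctsd (cathepsin D) and Lamp1 were higher (log2 0.39 and 0.33) and turned to -0.01 and -0.08 with total counts. With total counts none was 2-fold higher and 4 were 2-fold lower. On the TMM scale the lysosome shares were 12.1% higher and 3.03% lower, under the 17.2% and 12.5% of all genes tested.

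Genes of the oxidative stress factor NRF2 rose in most cases. Of 21 listed targets 14 were at least 2-fold higher and 1 lower (66.7% and 4.76%, against 17.2% and 12.5% of all genes tested). The median log2 was 1.34, and 9 were higher with total counts. Slc7a11, the cystine importer, rose from 6.31 ± 1.06 to 95.7 ± 4.68 CPM (log2 3.93, SE 0.145), Txnrd1 (thioredoxin reductase) from 132 ± 1.29 to 638 ± 31.1 CPM (log2 2.27, SE 0.0572), and Hmox1, which degrades heme, from 55.9 ± 6.93 to 278 ± 26.7 CPM (log2 2.31, SE 0.126). The further targets Srxn1 and Nqo1 rose by log2 2.5 and 3.12. Osgin1 was lower (log2 -1.02, SE 0.146), and under 2-fold lower with DESeq2 or without replicate 2 at 4 h. Among 18 heat shock genes 5 were at least 2-fold higher (3 with total counts), which is 27.8% against 17.2% of all genes tested. They were led by Hspa1a, from 0.94 ± 0.15 to 62.2 ± 17.8 CPM (log2 6.04, SE 0.187), and its near copy Hspa1b (log2 4.88, SE 0.17), whose counts cannot be fully separated. In the unfolded protein and integrated stress response 12 of 30 genes (40.0%) were at least 2-fold higher, for example the chaperone Hspa5 (log2 1.5, SE 0.0412) and Ppp1r15a, which restarts translation, from 22.8 ± 1.65 to 194 ± 4.51 CPM (log2 3.09, SE 0.0542). The factors Atf4 and Cebpb rose by log2 1.1 and 2.45, and Ddit3 (CHOP) by 0.71. Xbp1 was higher (log2 0.25) and turned to -0.15 with total counts.

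Sterol synthesis had 12 of 26 genes (46.2%, against 17.2% of all genes tested) at least 2-fold higher and none at least 2-fold lower, with a median log2 of 0.96. With total counts 6 were higher and 1 lower. The synthase Hmgcs1, an early enzyme of the pathway, rose from 178 ± 13.2 to 673 ± 63.03 CPM (log2 1.92, SE 0.0729). Later enzymes rose too, for example Idi1 and Hsd17b7 (log2 2.1 and 2.31) and Sqle and Fdft1 (log2 1.15 and 1.56). Sterol efflux under LXR showed 2 members at least 2-fold higher and 2 lower of 19. Each share was 10.5%, under the 17.2% higher and 12.5% lower among all genes tested. Nr1h3 (LXR-alpha) rose from 9.76 ± 1.903 to 57.9 ± 5.104 CPM (log2 2.57, SE 0.121), and Mylip, which degrades the LDL receptor, rose too (log2 1.42, SE 0.0491). The efflux pumps Abca1 and Abcg1 rose under 2-fold, from 59.7 ± 12.3 to 108 ± 7.05 CPM and from 137 ± 2.22 to 219 ± 21.3 CPM (log2 0.86 and 0.68). Rxra, the partner of LXR, and Scd2, a fatty acid desaturase, fell (log2 -1.11 and -1.34).

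Enzymes of nitric oxide and itaconate synthesis rose. Nos2, which makes nitric oxide from arginine, held 3 counts in all untreated libraries and reached 61.1, 75.3 and 66.2 CPM at 4 h. The ratio of counts was 3150, with a 95% counting interval of 1080 to 15300. Acod1, which makes itaconate, rose from 1.53 ± 0.209 to 847 ± 90.3 CPM (log2 9.11, SE 0.447) and had reached 107 CPM with OVA. Slc7a2, an arginine importer, rose from 1.56 ± 0.423 to 59.5 ± 4.97 CPM (log2 5.26, SE 0.169), and Gch1, which makes a cofactor of NO synthase, from 16.1 ± 0.79 to 131 ± 8.95 CPM (log2 3.02, SE 0.0646). Of 11 genes of this list 7 (63.6%, against 17.2% of all genes tested) were at least 2-fold higher and 0 lower. Arg1, the competing arginase, was at 0.223, 0.194 and 0.122 CPM before and 0.236, 0.299 and 0.24 CPM after and was not called (edgeR FDR 0.582). Prostaglandin and leukotriene genes went both ways. Ptgs2 (COX-2) rose from 1.91 ± 0.115 to 282 ± 31.4 CPM (log2 7.2, SE 0.19) and Ptges, the prostaglandin E synthase, from 0.526 ± 0.123 to 15.1 ± 0.848 CPM (log2 4.84, SE 0.179). Hpgd (Entrez 15446, mm10 chromosome 8, 56294552 to 56321046), which breaks prostaglandins down, held 125, 115 and 105 CPM in untreated libraries and 4.25, 3.797 and 4.33 CPM at 4 h (log2 -4.8, SE 0.104, edgeR FDR 9.95e-26), with no overlap. Ptger4, a receptor for prostaglandin E, rose and Ptger3, another, fell (log2 1.84 and -3.24). In the leukotriene pathway Alox5 fell from 41.9 ± 2.58 to 14.97 ± 1.13 CPM (log2 -1.48, SE 0.0656), Alox5ap from 493 ± 18.7 to 108 ± 2.03 CPM (log2 -2.19, SE 0.044) and the receptor Ltb4r1 from 25.6 ± 1.61 to 1.58 ± 0.376 CPM (log2 -4.0, SE 0.104). Cysltr1, the receptor for cysteinyl leukotrienes, fell from 107 ± 13.6 to 22.3 ± 0.699 CPM (log2 -2.26, SE 0.0853). Of 21 genes of this list 8 were at least 2-fold lower and 3 higher (38.1% and 14.3%, against 12.5% and 17.2% of all genes tested). In glycolysis and the hypoxia response 7 of 28 were at least 2-fold higher, among them the transporter Slc2a1 (log2 1.58, SE 0.049) and Pfkfb3 (log2 1.49, SE 0.0459), and 5 lower, among them Pdk1 (log2 -1.49, SE 0.0513) and the oxygen sensor Egln1 (log2 -1.41, SE 0.0418). With total counts these were 4 and 8. Hif1a and Hk2 were higher by less than 2-fold (log2 0.92 and 0.79). Ldha (lactate dehydrogenase) stayed within the spread (491, 523 and 503 against 499, 506 and 510.4 CPM; edgeR FDR 0.955). With total counts Ldha was called lower (log2 -0.41).

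**Figure D4:**
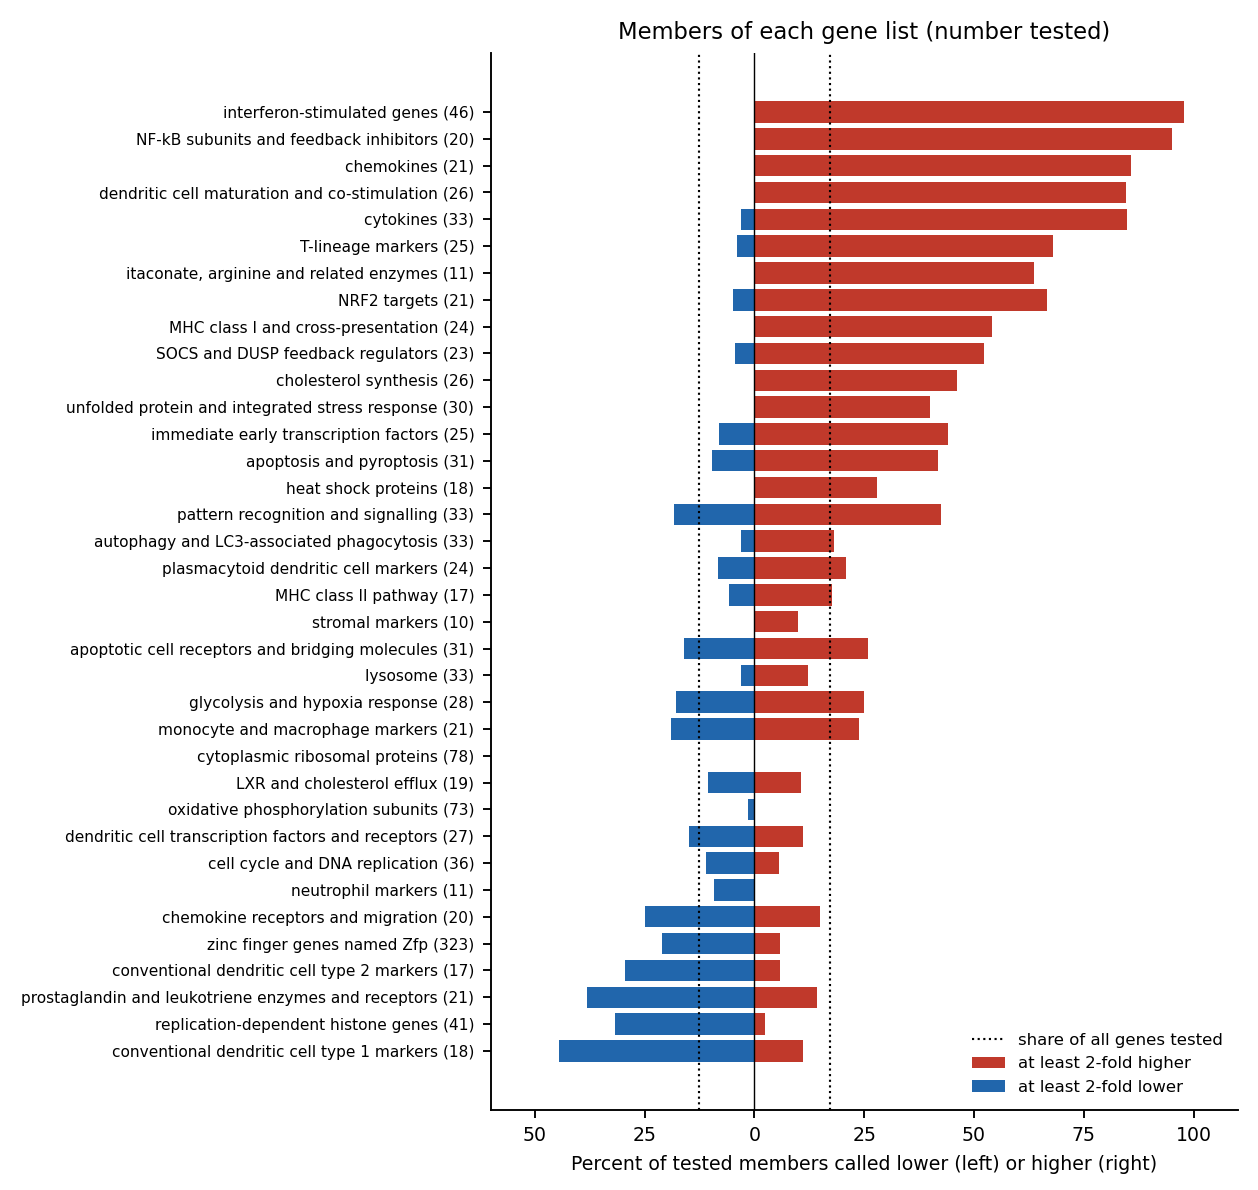
Share of the tested members of each gene list with 10 or more tested members, other than the type I and III interferon genes (y axis, number tested in parentheses) that were called at least 2-fold higher (red, right) or lower (blue, left) at 4 h of Jurkat cells, in percent (x axis). Dotted lines mark the shares among all genes tested, 17.2% higher and 12.5% lower; the interferon-stimulated, NF-kB, chemokine, cytokine and maturation lists reach furthest right and the conventional dendritic cell type 1 markers furthest left.

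The largest rises, among genes with at least 20 CPM in the higher group, included a few outside the lists above. Serpina3f, a protease inhibitor, rose from 0.181 ± 0.114 to 59.3 ± 5.67 CPM (log2 8.35, SE 0.334). Tgtp1, an interferon-induced GTPase with a near copy in the genome, rose from 0.572 ± 0.161 to 105 ± 19.5 CPM (log2 7.51, SE 0.306), and Saa3, an acute phase protein, from 0.263 ± 0.168 to 45.4 ± 1.05 CPM (log2 7.41, SE 0.321). The largest falls were led by a gene of a membrane protein. Hepacam2 (Entrez 101202, mm10 chromosome 6, 3457089 to 3494498), of the immunoglobulin superfamily, stood at 88.9, 92.7 and 87.5 CPM in untreated libraries and 2.96, 2.75 and 3.24 CPM at 4 h (log2 -4.91, SE 0.074, edgeR FDR 5.59e-29). It was 77.96 CPM at 30 min and 61.9 CPM with OVA, so the libraries at 4 h of Jurkat cells stood lowest. Cd300lg fell from 55.2 ± 2.86 to 1.96 ± 0.232 CPM (log2 -4.8, SE 0.0749) and Lpar5, a receptor for lysophosphatidic acid, from 41.3 ± 1.53 to 1.805 ± 0.0531 CPM (log2 -4.52, SE 0.0951). Further large falls were Dpep3, Card10, Kif5a, Deptor, Susd3, Lbh and Sgsh, at log2 -4.48, -4.48, -4.29, -4.0, -3.86, -3.81 and -3.78. Deptor encodes an inhibitor of mTOR and Sgsh a lysosomal sulfatase. By level, the genes that lost most CPM besides Itgb7 and Ccr2 were Eef2, a translation elongation factor (from 3334 ± 138 to 2323 ± 8.63 CPM), Arhgap45 (from 926 ± 42.3 to 229 ± 2.27 CPM) and Kctd12 (from 1012 ± 133 to 294 ± 14.7 CPM). Gains by level were led by Actb (beta-actin), from 5818 ± 227 to 18194 ± 988 CPM (log2 1.64, SE 0.0396), which is often used as a reference gene.

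Genes that mark dendritic cell types moved unevenly. Flt3, the receptor that supports the culture, held 549, 582 and 569 CPM and then 232, 229.5 and 228 CPM (log2 -1.3, SE 0.035, edgeR FDR 1.26e-23), and OVA left it at 492 CPM. The factors Irf4 and Batf3, of types 2 and 1 of conventional cells, fell from 137 ± 1.27 to 51.5 ± 7.08 CPM and from 18.8 ± 0.854 to 7.21 ± 0.866 CPM (log2 -1.41 and -1.38), while Irf8 fell by 0.17 (SE 0.0424). Tcf4, the factor of plasmacytoid cells, and Zbtb46, that of conventional ones, were higher (log2 0.51 and 0.31), the first not called with total counts and the other turning to -0.09. Of 27 such factors and receptors 3 were at least 2-fold higher and 4 lower, or 6 higher under DESeq2. Of 18 type 1 markers 8 were at least 2-fold lower and 2 higher (median log2 -0.80). Sept3 fell from 239 ± 12.9 to 19.01 ± 1.19 CPM (log2 -3.65, SE 0.0546) and Gcsam from 33.8 ± 0.874 to 4.97 ± 0.723 CPM (log2 -2.75, SE 0.0759), but Xcr1 was higher (log2 0.83, SE 0.0544). Ifi205, which is also an interferon target, rose from 131 ± 3.69 to 1128 ± 133 CPM (log2 3.11, SE 0.105). Of 17 type 2 markers 5 were at least 2-fold lower and 1 higher. The lectin genes Clec10a and Cd209a fell from 161 ± 8.77 to 12.7 ± 0.349 CPM and from 159 ± 6.63 to 13.5 ± 0.685 CPM (log2 -3.67 and -3.56), and Sirpa by 0.14, a fall not called under DESeq2. Mgl2 and Il1r2 fell by log2 1.74 and 1.54. Among plasmacytoid markers 5 of 24 were at least 2-fold higher and 2 lower (median log2 0.36, or -0.05 and 2 higher with total counts). Siglech went from 800.1 ± 11.2 to 717 ± 69.03 CPM (log2 -0.16, SE 0.0571) and was not called under DESeq2 or without replicate 3 at 4 h, and Ly6d rose from 203 ± 4.07 to 629 ± 63.4 CPM (log2 1.64, SE 0.0631). Of 21 monocyte and macrophage markers 5 were at least 2-fold higher and 4 lower, with Fcgr1 (CD64) up from 22.4 ± 1.42 to 124 ± 20.8 CPM (log2 2.47, SE 0.0924), Cd14 up from 30.2 ± 1.38 to 194 ± 6.81 CPM (log2 2.68, SE 0.0798) and Cd163 down from 26.9 ± 1.13 to 2.58 ± 0.554 CPM (log2 -3.37, SE 0.1). Each of these lists held members that rose and members that fell. The shares at least 2-fold higher and lower were 23.8% and 19.0% for monocyte and macrophage markers and 20.8% and 8.33% for plasmacytoid markers, against 17.2% and 12.5% of all genes tested. They were 11.1% and 44.4% for type 1 markers and 5.88% and 29.4% for type 2 markers. For the factors and receptors they were 11.1% and 14.8%, near or under the shares of all genes.

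Pattern recognition and cell death genes went both ways. Of 33 sensors and adaptors 14 were at least 2-fold higher (9 with total counts) and 6 lower. Tlr9 and Tlr7, endosomal sensors of DNA and RNA, rose from 162 ± 10.1 to 485 ± 68.7 CPM and from 137 ± 11.4 to 324 ± 36.5 CPM (log2 1.58 and 1.24), as did Mb21d1 (cGAS), from 37.8 ± 2.47 to 92.8 ± 4.37 CPM (log2 1.3, SE 0.053). Nod1 and Nod2, sensors of bacterial wall fragments, rose from 8.595 ± 0.706 to 68.02 ± 5.26 CPM and from 13.6 ± 0.09 to 73.5 ± 1.83 CPM (log2 2.99 and 2.43). Tmem173 (STING) was higher (log2 0.31) and turned to -0.10 with total counts. Tlr3, Tlr11 and Tlr12, which type 1 conventional cells are known to express, fell by log2 1.42, 1.74 and 1.62. In the list for apoptosis and pyroptosis 13 of 31 were at least 2-fold higher and 3 lower. The shares higher and lower were 41.9% and 9.68% here and 42.4% and 18.2% for sensors and adaptors. Among all genes tested they were 17.2% and 12.5%. Casp4, the sensor caspase of cytosolic lipopolysaccharide in mice, rose from 9.39 ± 0.295 to 243 ± 20.6 CPM (log2 4.69, SE 0.135), and Nlrp3, the inflammasome sensor, from 71.3 ± 2.16 to 199 ± 10.7 CPM (log2 1.48, SE 0.047). Pycard, the inflammasome adaptor, and Casp9, the caspase of the mitochondrial pathway, fell from 114 ± 3.54 to 48.4 ± 1.91 CPM and from 55.3 ± 2.51 to 19.2 ± 1.68 CPM (log2 -1.24 and -1.52). Among BCL2 family genes Bcl2l11 (BIM) and Pmaip1 (NOXA), which promote death, rose from 52.2 ± 1.62 to 307 ± 18.3 CPM and from 98.7 ± 7.44 to 602 ± 20.9 CPM (log2 2.56 and 2.61), and the protective Bcl2a1b rose from 18.1 ± 1.87 to 548 ± 28.9 CPM (log2 4.92, SE 0.142; copies of Bcl2a1 are near identical). Bmf, another promoter of death, fell from 78.6 ± 2.34 to 11.4 ± 0.879 CPM (log2 -2.79, SE 0.0542).

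Genes of proliferation were mostly lower. Of 36 cell cycle genes 32 were called lower and 4 higher, with 4 and 2 of them at least 2-fold (median log2 -0.61), where 40.6% of all genes tested were called lower and 12.5% at least 2-fold. With total counts 18 were at least 2-fold lower. E2f2 fell from 87.8 ± 4.72 to 25.04 ± 0.975 CPM (log2 -1.81, SE 0.0453), its relative E2f1 from 55.4 ± 1.08 to 24.6 ± 0.203 CPM (log2 -1.17, SE 0.0445), and the proliferation marker Mki67 from 669 ± 14.5 to 456 ± 8.97 CPM (log2 -0.55, SE 0.0405). The inhibitor Cdkn1a (p21) stood at 74.3, 76.9 and 78.97 CPM in untreated libraries and 1659.7, 1689.6 and 1766 CPM at 4 h (log2 4.47, SE 0.125, edgeR FDR 2.73e-23), and Ccnd2 (cyclin D2) rose from 123 ± 3.69 to 1616 ± 187 CPM (log2 3.72, SE 0.095). Cytoplasmic ribosomal protein genes changed little on the TMM scale, with 7 of 78 called higher, 36 lower and none 2-fold (median log2 -0.09, or -0.49 with total counts). For 73 subunits of oxidative phosphorylation the median was 0.17, or -0.23 with total counts, and Ndufa6 was at least 2-fold lower (log2 -1.07, SE 0.0532).

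The libraries at 4 h of Jurkat cells also differed widely from the reference groups. With OVA at 4 h as the reference 11471 genes were called (77.5%), 2190 at least 2-fold higher (14.8%) and 1549 lower (10.5%). With 30 min of Jurkat cells as the reference 11645 were called (78.6%), 2350 at least 2-fold higher (15.9%) and 1768 lower (11.9%). These 3 comparisons share the 3 libraries at 4 h of Jurkat cells, so their counts are not independent. Some genes stood between the groups with OVA. Besides Marco and Acod1, Cd14, the co-receptor for lipopolysaccharide, was at 30.2 CPM untreated, 105 CPM with OVA and 194 CPM with Jurkat cells. Ikbke, a kinase upstream of interferon-beta, was at 18.4, 61.2 and 141 CPM in these groups.

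The same comparison in KO cultures used 6 other libraries. There 2316 genes were at least 2-fold higher (15.6%) and 1592 at least 2-fold lower (10.8%). Of the 2551 genes at least 2-fold higher in wild type, 2457 (96.3%) were also called higher in KO, against 37.5% of all genes tested, and 2177 (85.3%) were at least 2-fold higher there. Of the 1855 at least 2-fold lower, 1772 (95.5%) were also called lower, against 41% of all genes, and 1427 (76.9%) at least 2-fold. None of either set was called in the opposite direction. The test of the difference between the responses called 631 genes (4.26%), 50 of them by 2-fold or more (0.338%). For Cxcl10 the log2 fold change was 10.13 in wild type and 10.37 in KO (difference edgeR FDR 0.925), and for Il6 9.18 and 8.09 (FDR 0.598). Ifnb1 reached 4.17, 3.34 and 3.52 CPM in KO libraries, below the 9.68, 15.8 and 12.1 CPM in wild type. Both groups lacked a count when untreated, so the test of the difference in response could not decide for this gene. At 4 h the tested interferon genes summed to 12.1 to 15.0 CPM in KO and 35.4 to 62.04 CPM in wild type. Interferon-stimulated genes summed to 33785 to 37462 CPM in KO and 44686 to 54250.3 CPM in wild type. Their untreated sums were 3086 to 3273 CPM in KO and 4638 to 4886 CPM in wild type.

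**Figure D5:**
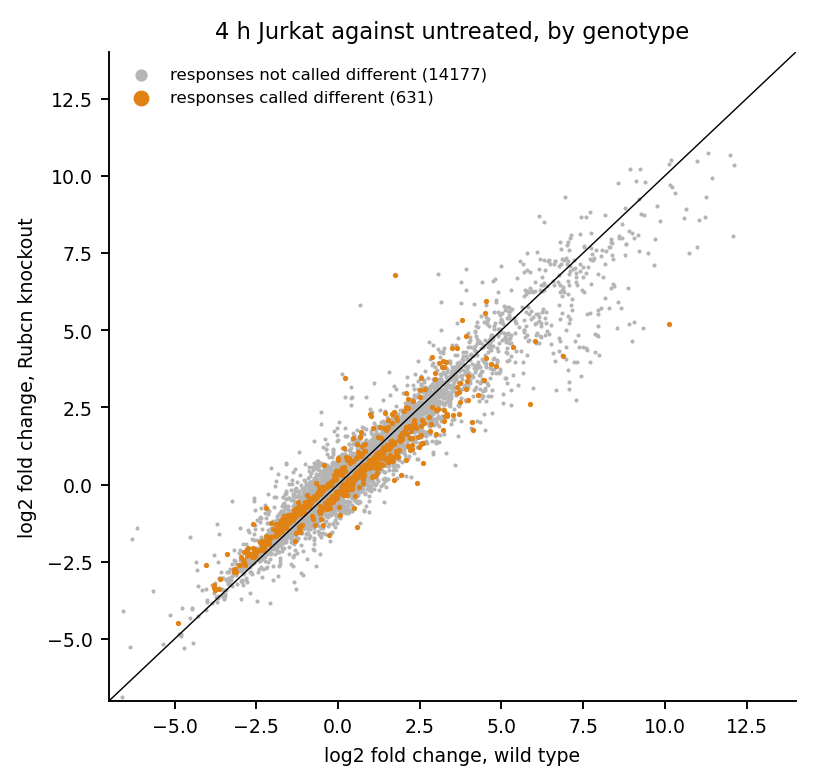
Each point is 1 of the 14808 genes tested, with its log2 fold change at 4 h of Jurkat cells against untreated in wild type (x axis) and in Rubcn knockout cultures (y axis), and the line marks equal values. Orange points are the 631 genes whose responses were called different. Grey points were not called, and some of them lie well off the line.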

How the data were processed

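What the authors deposited was a table of raw counts of reads for each gene, in whole numbers, with symbols, Entrez identifiers and mm10 intervals, per the file headers. The submitters' processing notes name STAR 2.5, Subread, featureCounts 1.5.0-p1 and DESeq2. No source used here gives the annotation, the use of strand or the treatment of human reads, so counts of overlapping or antisense genes and of near-identical copies are uncertain. Libraries came from total RNA by the TruSeq v2 kit, per the labels' protocols, a kit that does not mark strand. Groups and replicate numbers come from the sample titles.

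The table held 25611 rows with 24623 symbols, 396 of them at more than 1 interval. Total counts were 9734778 to 51642601 over the 30 libraries and 41448924 to 46913990 in the 6 compared. Replicates of a group differed by more than sampling noise (chi-square per degree of freedom 3.99 to 15.5). Counts were scaled with TMM and filtered with filterByExpr by group, which kept 14808 genes and 99.99% of counts. edgeR 4.0.16 (R 4.3.3) fitted quasi-likelihood models to all 30 libraries with a mean per group. Tests were two-sided, and calls were Benjamini-Hochberg FDR under 0.05 over all genes tested. The SE of a log2 fold change was taken as its size over the root of F. The pipeline was tested on simulated data in which few genes changed, so that test cannot check the scaling of a comparison this broad. Gene lists are described by counts and medians, without a set test. Without molecular identifiers reads are not independent molecules, and intervals and floors hold counting error alone.

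Named genes are the 12 largest rises and falls among genes that reached 20 CPM in 1 group without overlap, the 5 largest rises already at least 2-fold higher at 30 min, the 5 largest gains and losses in CPM, anchor members of each list, and up to 4 members per list and direction that changed at least 2-fold at 5 CPM or more. Other list members, given by log2 alone, and Rubcn stand outside that rule. Some genes that the rule names are not reported here. Members and lists were chosen with earlier results of these data known. Alternatives were DESeq2 size factors, total counts, no filter, a stricter filter (5 CPM in 3 libraries), a replicate block, the compared groups alone, DESeq2 1.42.0, each library left out, and leaving out genes higher at 30 min of Jurkat cells.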

Additional observations from a re-analysis of the deposited data

Results flagged for a closer look

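Of 284 genes named by rule, 30 responded differently to 4 h of Jurkat cells in wild type and KO cultures by the interaction test (edgeR FDR under 0.05), against 4.26% of all genes tested, and 27 of them are reported here. The named genes were chosen in part by their change in wild type, which favours smaller changes in KO among them. Differences are given as the KO minus the wild-type log2 fold change. Hdc, histidine decarboxylase, differed by -1.38 (log2 fold change 4.29 and 2.91 in wild type and KO) and Egr1 by 0.88 (-0.02 and 0.86). Mertk, the phosphatidylserine receptor kinase, differed by -0.84 (1.13 and 0.28) and Lck, a T-cell kinase of the T-lineage list, by -0.85 (3.93 and 3.08). The summed T-lineage level at 4 h of Jurkat cells was 232 to 283 CPM in wild type and 199 to 229 CPM in KO, and the part of added Jurkat RNA in these differences was not tested. Among genes that rose in wild type, the rise was smaller in KO for Actb -0.27, Atf3 -0.59, Ccnd2 -0.44, Ddit3 -0.31, Fdft1 -0.43, Hspa5 -0.21, Hsph1 -0.53, Nod1 -0.58, Optn -0.58, P4ha1 -0.32, Socs3 -0.46, Sqle -0.34, Zfp599 -0.86 and Ptges -0.99. Among genes that fell in wild type, the fall was smaller in KO for Alox5 0.50, Bmf 0.46, Gcsam 0.71, Hepacam2 0.43, Hist2h2be 0.41, Lbh 0.45 and Sept3 0.27. A larger response in KO was seen for H2-K1 0.18 and Havcr2 -0.26, of which H2-K1 rose and Havcr2 fell in both genotypes. The number of genes called by the interaction fell to 337 when the 12 libraries were fitted alone and to 362 without wild-type untreated replicate 2.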

How the results depend on the processing

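Under 8 of the alternatives, all but leaving out libraries, between 9240 and 12327 genes were called for 4 h of Jurkat cells against untreated in wild type, against 11778, and leaving out 1 library gave 11453 to 11623. Scaling to total counts gave 3570 genes higher, 3525 at least 2-fold lower and 29.0% of called genes higher, and turned the direction of Cadm1 (-0.37), Cox4i1 (-0.03), Ctsd (-0.01), Lamp1 (-0.08), Ndufs1 (-0.35), S100a8 (-0.25), Tmem173 (-0.10), Xbp1 (-0.15) and Zbtb46 (-0.09), as log2 fold changes. The stricter filter left 1412 genes at least 2-fold higher and 1197 lower, because fewer genes were tested. The interaction called 337 genes with its 12 libraries alone and 362 to 637 with 1 library left out, against 631. It moved by over 1.5 times without wild-type untreated replicate 2 (362), wild-type 4 h Jurkat replicate 2 (363), KO untreated replicates 1 (379) and 2 (416) and KO 4 h Jurkat replicate 3 (382). The cause was not tested. With 1 library left out, genes higher numbered 5609 to 5724, lower 5834 to 5912, at least 2-fold higher 2538 to 2642 and lower 1867 to 1893, and 48.7% to 49.2% of calls were higher. The other comparisons kept their counts within 1.5 times. Replicate numbers were entered as a replicate block within genotype, which gave 11813 genes called for the wild-type comparison and 725 for the interaction. Deviations of same-numbered libraries of the 2 wild-type groups from their group means correlated at -0.306, -0.303 and 0.059. Those of libraries with different numbers correlated at -0.235 to 0.37. With 3 libraries per group, such correlations cannot decide whether the numbers pair the libraries. Of 284 named genes 283 kept their call under the block and 277 under DESeq2. Promoter shares for sets of genes that rose or fell, at 2-fold or 4-fold, were computed but are void and not given, because under 80% of genes had a promoter. Shares of the chemokine, cytokine and interferon-stimulated lists were left out on the same ground.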

Other observations

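A few genes outside the groups above had risen by 30 min of Jurkat cells and went on rising. Myo7b, a myosin of epithelial brush borders, held 1 count over the untreated libraries, 11.99 CPM at 30 min and 44.5, 32.4 and 45.4 CPM at 4 h, and no count after 4 h of OVA. The ratio of counts was 5750, with a 95% counting interval of 1030 to 227000. Acta1, skeletal muscle actin, went from 0.121 ± 0.0304 to 26.8 ± 3.13 CPM and stood at 7.11 CPM at 30 min and 0.0997 CPM with OVA. The T-lineage sum moved the same way, at 160.4 to 168 CPM at 30 min and 232 to 283 CPM at 4 h, and the part of Jurkat RNA in these rises was not tested.

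Of 323 tested zinc finger genes named Zfp, 204 were called lower and 60 higher, where 40.6% and 38.9% of all genes tested were. At least 2-fold lower were 68 (21.1%, against 12.5% of all genes) and at least 2-fold higher 19 (5.88%, against 17.2%). The median log2 fold change was -0.41, against -0.02 over all genes. Zfp395 fell from 35.2 ± 1.74 to 3.705 ± 0.398 CPM (log2 -3.25, SE 0.0795) and Zfp811 rose from 0.663 ± 0.0911 to 16.9 ± 0.942 CPM (log2 4.66, SE 0.233). Zfp36, which destabilises cytokine messages and is a CCCH-type protein, rose from 216 ± 15.2 to 1096 ± 30.2 CPM (log2 2.35, SE 0.0543). Of 41 replication-dependent histone genes tested 13 were at least 2-fold lower and 1 higher (31.7% and 2.44%, against 12.5% and 17.2% of all genes). Of the 41, 24 were not called, and 32 were under 1 CPM in untreated cells, near the floor. Hist2h2be, whose message can carry a poly(A) tail, fell from 19.95 ± 0.849 to 7.08 ± 0.673 CPM (log2 -1.49, SE 0.0665). With total counts 137 Zfp and 22 histone genes were at least 2-fold lower, and with the stricter filter 41 and 1.

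Markers of further cell types moved in parts. Basophil and mast cell markers summed to 23.6 to 30.1 CPM in untreated libraries and 54.9 to 70.2 CPM at 4 h. Of 8 tested, 1 was at least 2-fold higher, Hdc, from 1.61 ± 0.384 to 31.6 ± 5.12 CPM (log2 4.29, SE 0.16), while Mcpt8 was not called (3.41, 4.08 and 3.22 against 4.17, 3.11 and 4.84 CPM; edgeR FDR 0.443). B-cell markers summed to 26.7 to 29.8 and 41.9 to 42.8 CPM, with 4 of 9 at least 2-fold higher (2 with the stricter filter), for example Ms4a1 (CD20), from 1.17 ± 0.154 to 5.56 ± 0.782 CPM (log2 2.24, SE 0.162). NK cell markers summed to 2.71 to 3.13 and 3.199 to 3.48 CPM, with 2 of 5 tested at least 2-fold higher, or 1 with the 6 libraries fitted alone. The shares at least 2-fold higher were 12.5% for basophil and mast cell, 44.4% for B-cell and 40.0% for NK cell markers, against 17.2% of all genes. Of the tested members, 3 of 9 B-cell and 3 of 5 NK cell markers were under 1 CPM in untreated cells and had little room to fall. Neutrophil markers summed to 159 to 178 and 177 to 181 CPM. Stromal markers went from 669 to 772 to 963 to 1128 CPM, with Col1a1, a collagen, going from 160.0 ± 10.2 to 242 ± 21.2 CPM (log2 0.60, SE 0.0873).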
